A study of Mus musculus with 8 samples.

Results

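The core clock genes examined here were the 9 genes of the first feedback loop of the mammalian circadian clock, namely Arntl (also called Bmal1), Clock, Npas2, Per1, Per2, Per3, Cry1, Cry2 and Ciart. They were taken by name for their place in the loop and were read from array features that carry exactly 1 gene symbol. Of the 9 genes, 8 were measured in this way, out of 22180 genes in all. The only feature of Per2 also carried the symbol of a second gene, so Per2 was not analysed here.

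The arrays came from the livers of 8 adult male mice, wild-type by their labels, that had been bought at 7 weeks of age and acclimated for 2 weeks. In the PBS group, 4 mice received vehicle by intraperitoneal injection. In the IL1B group, 4 mice received interleukin 1 beta, a cytokine that opens the acute phase response, by the same route, 0.5 µg to each mouse. The liver was collected 3 h after injection, and each array stands for the liver of 1 mouse by its label. The question was how an acute inflammatory stimulus changes the liver transcriptome, here for the clock genes, which also vary with the hour of the day. All mice were kept in a light-dark cycle, but the hour of injection was not given in the sources used here. The strain label was C57BL/6J for PBS and C57BL/6 x CBA for IL1B, while the description of the series names C57BL/6J for all, so treatment and labelled strain cannot be told apart. H2-Ea, which C57BL/6 strains do not express and CBA does, was at background in all 8 arrays. The 6 lymphocyte markers looked at were at background in all 8 arrays too. A gene of immune cells could thus be at background in either strain, and H2-Ea does not tell the strains apart here. Nnt, which is disrupted in C57BL/6J, was above background in all 8 arrays. It ranged from 9.23 to 10.04 in the PBS mice and from 8.57 to 9.73 in the IL1B mice. Its log2 fold change was -0.32 ± 0.28 (SE), with a limma adjusted p of 0.506.

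In the first loop, ARNTL pairs with CLOCK, or with its paralogue NPAS2, and the pair binds E-boxes to turn on the Per and Cry genes and Ciart. The PER and CRY proteins then enter the nucleus and repress the same pair, and CIART (CHRONO) is a further repressor of it. A second loop runs through the REV-ERB repressors and ROR activators, which act on Arntl, Clock, Npas2 and Cry1 through a shared element, and D-box factors such as DBP act on the Per genes. In mouse liver these genes cycle over the day, with Arntl, Clock and Npas2 high when Dbp, Nr1d1 and the Per genes are low. Per1 is in addition an immediate target of the glucocorticoid receptor and of CREB.

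The promoters of the genes that the results turn on are shown first, since the loop is written in them. Sequences were taken from RefSeq windows on GRCm38.p6, which span 250 bases before to 50 after each annotated start, and all 8 measured genes had at least 1 window. The motifs were searched on both strands, and a match describes letters only. Capitals mark an E-box (CACGTG) or a D-box (TTATGNAA) in the 250 bases before the start of Per1 at chr11:69098699-69098948 (plus strand) and of Ciart at chr3:95882229-95882478 (minus strand).
Per1: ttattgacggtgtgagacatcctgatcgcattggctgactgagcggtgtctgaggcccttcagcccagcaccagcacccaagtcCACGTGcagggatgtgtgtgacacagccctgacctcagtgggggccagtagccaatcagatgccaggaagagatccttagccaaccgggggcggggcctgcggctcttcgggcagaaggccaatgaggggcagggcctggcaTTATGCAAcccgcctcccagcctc
Ciart: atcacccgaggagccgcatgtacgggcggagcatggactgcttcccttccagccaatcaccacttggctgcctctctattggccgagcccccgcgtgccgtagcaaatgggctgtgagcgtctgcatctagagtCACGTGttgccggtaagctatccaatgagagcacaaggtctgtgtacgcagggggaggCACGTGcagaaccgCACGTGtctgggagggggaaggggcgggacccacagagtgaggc
The Per1 window held an E-box at -166 and a D-box at -24 from the start, and the Ciart window held E-boxes at -116, -58 and -44. The E-box was present in 7.15% of all 32851 windows of this length and the D-box in 3.38%. A second Per1 window held the core of the cAMP response element (TGACGT, 7.51% of windows) at -132. Neither the full glucocorticoid response element (AGAACA and TGTTCT with 3 bases between them, 0.00913% of windows) nor an NF-kB site (GGGA, any base, then TTTCC, 0.411%) was matched in the windows of the 8 genes.

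Shorter stretches show the elements of 3 genes that move opposite to, or together with, Per1 over the day. They come from Arntl at chr7:113207528-113207557 (plus strand, with the REV-ERB and ROR element, AANT followed by AGGTCA, in capitals), from Per3 at chr4:151044852-151044881 and chr4:151044805-151044834 (minus strand, D-box in capitals) and from Cry1 at chr10:85185097-85185126 (minus strand, E-box in capitals).
Arntl: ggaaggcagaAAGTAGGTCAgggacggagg
Per3, distal: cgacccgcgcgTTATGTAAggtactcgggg
Per3, proximal: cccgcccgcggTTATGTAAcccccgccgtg
Cry1: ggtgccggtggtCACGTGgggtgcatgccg
The Arntl element lay at +27 and belongs to the rarest of the matched motifs, found in 0.219% of windows. The E-prime box (CACGTT, 4.68% of windows) was matched at -79 in Cry1 and at -166 in Cry2. The windows of Clock and Npas2 held none of the motifs searched.

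Of the 8 measured core clock genes, Per1 and Ciart rose with IL1B and none fell, while the other 6 did not pass the test. Per1 rose 13.0-fold. Ciart rose 2.02-fold with its PBS values raised to background, although 1 IL1B array was also below background. Among all genes, limma called 7.19% higher and 5.32% lower at an adjusted p of 0.05 or less, and 11.9% and 11.7% at the cutoff of 0.15 used in the study, where the same count of 2 higher and 0 lower held for the members. Of all genes, 12160 were at background in all arrays. A filter on dim genes left 8880, of which 1783 were called higher and 1147 lower, with 1 member higher and 0 lower. At an unadjusted p of 0.05 limma gave 3 members higher, the third being Arntl, and 0 lower. The median log2 fold change of the 8 genes was 0.38, against -0.06 over all genes. The 4 values of each group did not overlap for Arntl, Per1 and Ciart, with IL1B above PBS in all 3, and this held for 9.81% of all genes in that direction and for 9.14% in the other. All values below are log2 RMA values, and folds are 2 raised to a difference between group means.

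**Figure D1:**
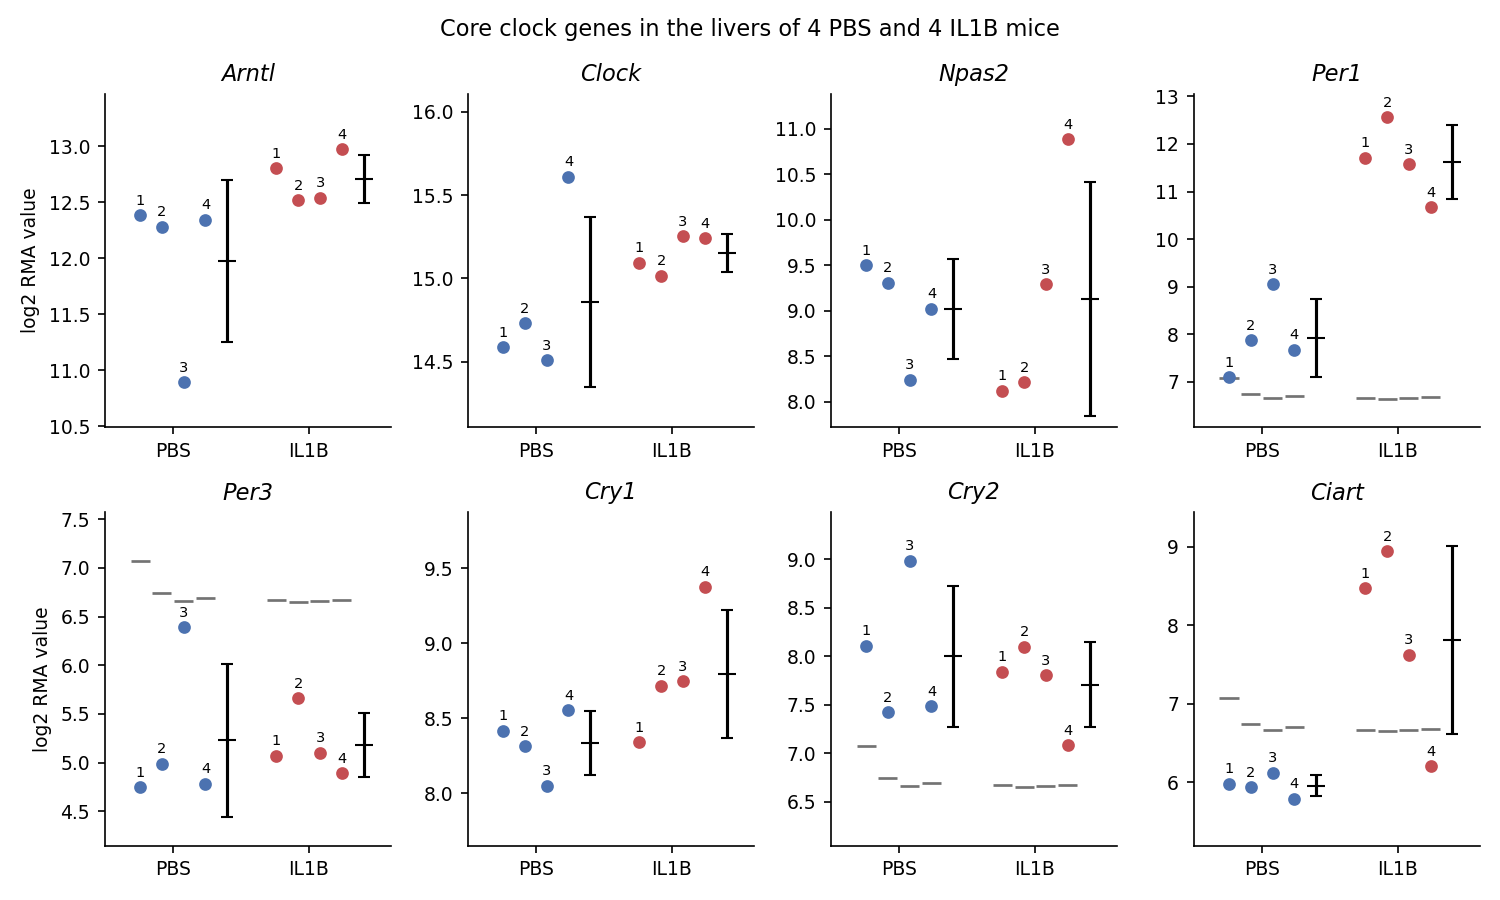
The log2 RMA value of each core clock gene is plotted for the 4 PBS arrays (blue) and the 4 IL1B arrays (red), numbered by replicate, with the group mean ± SD as black bars and, where they lie in the plotted range, each array's highest background probe set as grey dashes. Per1 sits between 7.10 and 9.06 in the PBS arrays and between 10.67 and 12.56 in the IL1B arrays, Per3 lies below the dashes in all 8 arrays, and PBS 3 is the highest or lowest PBS array in the panels of the 6 genes above background in PBS.

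Per1, the period gene that reacts fast to hormones and second messengers, was 7.10, 7.87, 9.06 and 7.67 in PBS 1 to 4 and 11.71, 12.56, 11.57 and 10.67 in IL1B 1 to 4. The lowest IL1B value stood 1.61 above the highest PBS value, so the groups lay well apart, although PBS 1 was close to the background of its array. The means were 7.93 ± 0.82 (SD, n = 4) and 11.63 ± 0.78 (SD, n = 4). The log2 fold change was 3.70 ± 0.46 (SE), with a 95% interval of 2.66 to 4.74 and a limma adjusted p of 0.00111. A two-sided exact permutation test of the same 8 values gave p = 0.029, the smallest that 4 against 4 arrays allow. Per1 stayed called in all 8 fits that left out 1 array, with log2 fold changes of 3.39 to 4.08.

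Ciart, whose product represses the activator pair, was 5.98, 5.93, 6.12 and 5.79 in PBS and 8.47, 8.94, 7.62 and 6.20 in IL1B. All 4 PBS values lay below the background of their arrays (6.65 to 7.08), and so did IL1B 4, while IL1B 1 to 3 lay above it. The means were 5.96 ± 0.14 (SD, n = 4) and 7.81 ± 1.20 (SD, n = 4). With PBS raised to the background of its arrays and IL1B 4 taken as it stood, the log2 fold change was 1.02. This is not a strict lower bound, since IL1B 4 was itself below background. The fitted value was 1.86 ± 0.49 (SE), with a limma adjusted p of 0.0382 (two-sided exact permutation p = 0.029). The call rested on the full set of arrays. It was lost in 7 of the 8 fits without 1 array, where the adjusted p reached 0.102, and it was kept without IL1B 4 at a fitted value of 2.39 and an adjusted p of 0.00181.

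Per3, a period gene with a mild role in the loop, was 4.75, 4.99, 6.39 and 4.78 in PBS and 5.07, 5.66, 5.10 and 4.89 in IL1B. Every value lay below the background of its array, so no fold is given, and PBS 3 stood above the rest.

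None of the 3 activators passed the test. Arntl, the partner that both activator pairs share, was 12.38, 12.28, 10.89 and 12.35 in PBS and 12.80, 12.52, 12.54 and 12.97 in IL1B. Every IL1B array was above every PBS array, but the gap was small next to the low value of PBS 3. The log2 fold change was 0.73 ± 0.32 (SE), with a 95% interval of 0.016 to 1.45, a limma adjusted p of 0.177 and a two-sided exact permutation p of 0.029. Without PBS 3 it was 0.37 ± 0.16 (SE), with an adjusted p of 0.187.

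Clock was 14.59, 14.73, 14.51 and 15.61 in PBS and 15.09, 15.02, 15.25 and 15.24 in IL1B. The IL1B arrays lay close together, above 3 of the PBS arrays and below PBS 4. Its log2 fold change was 0.29 ± 0.23 (SE), with a 95% interval of -0.23 to 0.82, a limma adjusted p of 0.473 and a two-sided exact permutation p of 0.314. Without PBS 4 it was 0.54, with an adjusted p of 0.0442, the only call of Clock in the fits that left out 1 array.

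Npas2, which can stand in for Clock, was 9.50, 9.31, 8.24 and 9.02 in PBS and 8.12, 8.22, 9.30 and 10.89 in IL1B. The IL1B arrays spanned the whole PBS range and more, from IL1B 1 and 2 at the bottom to IL1B 4 at the top. The log2 fold change was 0.11 ± 0.57 (SE), with a 95% interval of -1.16 to 1.38, a limma adjusted p of 0.929 and a two-sided exact permutation p of 0.914. Its sign turned to -0.47 without IL1B 4 and to -0.15 without PBS 3.

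Of the cryptochromes, Cry1, the stronger repressor, was 8.42, 8.31, 8.05 and 8.55 in PBS and 8.34, 8.72, 8.75 and 9.38 in IL1B. The groups overlapped at IL1B 1, and the other 3 IL1B arrays lay above all PBS arrays. Cry1 had a log2 fold change of 0.46 ± 0.22 (SE), with a 95% interval of -0.029 to 0.95, a limma adjusted p of 0.213 and a two-sided exact permutation p of 0.0857. Without IL1B 4 it was 0.27.

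Cry2 was 8.11, 7.42, 8.99 and 7.48 in PBS and 7.84, 8.10, 7.80 and 7.08 in IL1B. The groups overlapped broadly, with PBS 3 the highest and IL1B 4 the lowest of all 8 arrays. For Cry2 it was -0.29 ± 0.35 (SE), with a 95% interval of -1.09 to 0.50, a limma adjusted p of 0.652 and a two-sided exact permutation p of 0.571. Without PBS 3 it was 0.04, so its sign rested on that array.

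**Figure D2:**
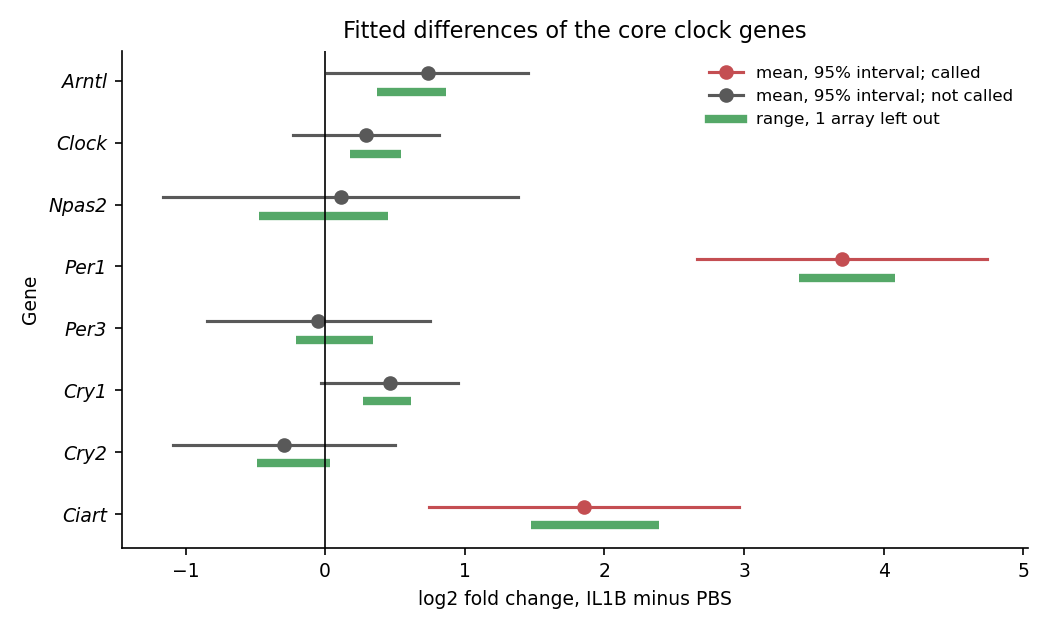
The log2 fold change (IL1B minus PBS) of each core clock gene is plotted on the horizontal axis as a point with its 95% interval from limma, red where called and grey where not, and the green bar under it spans the 8 fits that left out 1 array each. The bar of Per1 runs from 3.39 to 4.08 and that of Ciart from 1.48 to 2.39 (fitted values, with PBS at background), while the bars of Npas2, Per3 and Cry2 cross 0.

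The members did not have the same order of arrays as each other, but a few arrays recurred at the ends of their groups. Of the 6 members above background in PBS, PBS 3 had the highest value of Per1 and Cry2 and the lowest of Arntl, Clock, Npas2 and Cry1, so it was an extreme of its group for 6 of 6, while it was an extreme for 48.8% of the 9353 genes above background in at least 1 PBS array. Of the 7 members above background in at least 1 IL1B array, IL1B 4 was the highest in Arntl, Npas2 and Cry1 and the lowest in Per1, Cry2 and Ciart, the last being below background in that array, which made 6 of 7 against 52.0% of 9597 genes. IL1B 2 was an extreme for 5 of the 7, against 61.7%. The order of values below background, those of Per3 in all arrays and of Ciart in PBS, was not counted.

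Dbp and the REV-ERB genes, picked after their values were seen, had PBS 3 and IL1B 4 at the ends as well. Dbp, a D-box activator and direct target of the activator pair, was 7.37, 7.80, 11.84 and 7.04 in PBS and 8.10, 10.58, 8.02 and 6.86 in IL1B. Nr1d1 (REV-ERB alpha) was 11.21, 11.44, 13.00 and 11.43 in PBS and 11.57, 12.52, 12.54 and 10.30 in IL1B. Nr1d2 (REV-ERB beta) was 11.22, 11.32, 12.18 and 11.74 in PBS and 11.71, 12.47, 11.96 and 10.96 in IL1B. PBS 3 was the highest PBS array and IL1B 4 the lowest IL1B array for all 3 of these genes. Their log2 fold changes were -0.12 ± 1.09 for Dbp, -0.04 ± 0.54 for Nr1d1 and 0.16 ± 0.32 for Nr1d2 (SE), with limma adjusted p of 0.960, 0.976 and 0.800. The wide interval of Dbp, -2.58 to 2.33, means that a difference of that size was not detectable with these arrays. For the clock-controlled liver genes, only extremes in either direction were counted, and their order was not compared. Of the 16 above background, PBS 3 was an extreme for 9 and PBS 4 for 11, and IL1B 4 was an extreme for 6 and IL1B 2 for 10.

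**Figure D3:**
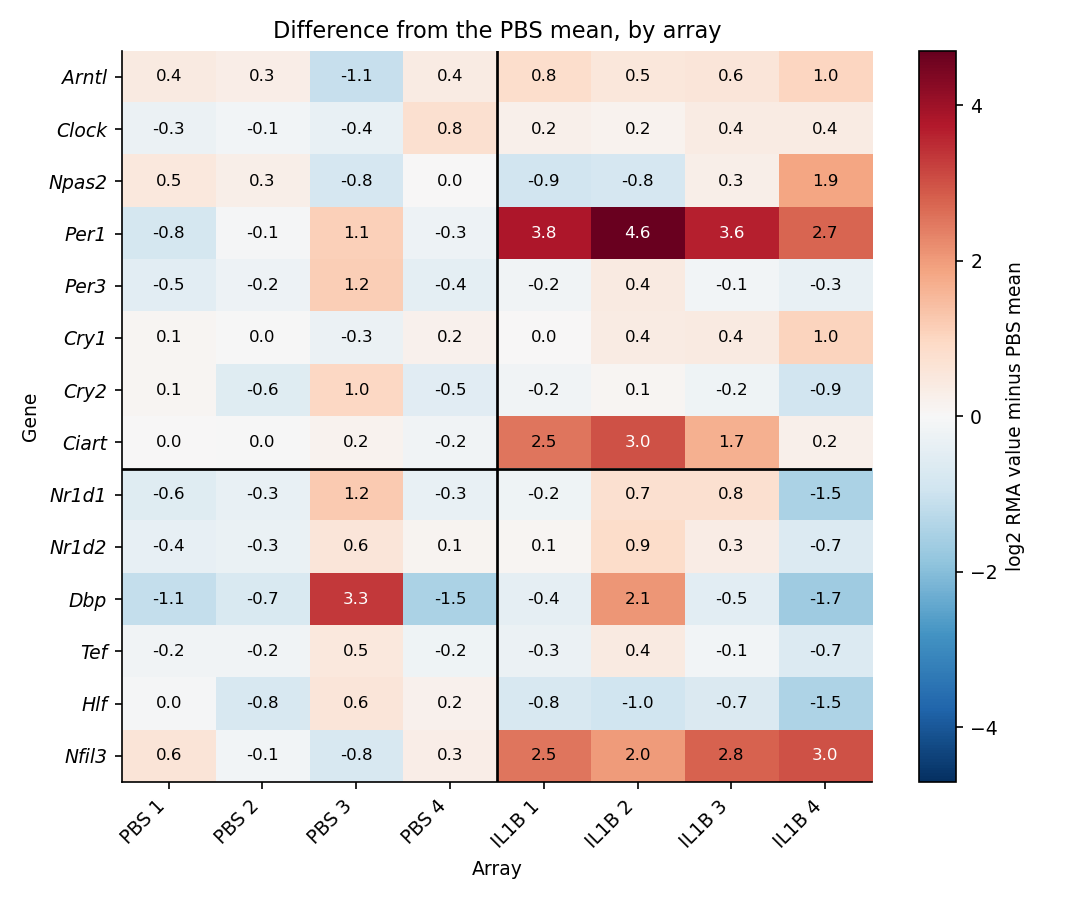
Each cell gives the log2 RMA value of a gene (rows, core clock genes above the line and second-loop and D-box genes below it) in an array (columns, PBS left of the line) minus the mean of the 4 PBS arrays, with red for higher and blue for lower. Per1 is red in all 4 IL1B arrays, and in PBS 3 Dbp, Nr1d1 and Per1 are red while Arntl and Npas2 are blue.

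The spread within groups differed between these genes. In PBS, the SD of Arntl was 0.72, higher than that of 96.9% of the 8880 genes above background in at least 4 arrays, and Per1, Cry2 and Npas2 exceeded 98.0%, 96.9% and 92.2% of them. In IL1B, the SD of Npas2 (1.29) and of Ciart (1.20) exceeded 98.7% and 98.4%, and that of Per1 94.9%. Others were not widely spread. In IL1B, 42.1% of genes had a lower SD than Arntl and 12.8% a lower SD than Clock, and in PBS 37.7% had a lower SD than Cry1. The low SD of Ciart in PBS (0.14) is that of values below background. The median SD over these genes was 0.25 in both groups.

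After each group's mean was subtracted, the 6 members above background in all arrays were set against each other across the 8 arrays, as a description of points that share 2 group means. Pearson's r reached a size of 0.5 or more in 11 of the 15 pairs. Without PBS 3 and IL1B 4, 7 of these 11 changed sign and 3 kept both sign and size, so most of them rested on those arrays. The 3 were Arntl with Per1 (-0.81, and -0.51 without the pair of arrays), Npas2 with Per1 (-0.83 and -0.55) and Clock with Cry2 (-0.60 and -0.56). Among those that turned, Arntl with Cry1 went from 0.51 to -0.75 and Per1 with Cry2 from 0.75 to -0.23.

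Leaving out PBS 3 and IL1B 4 together, the log2 fold change of Per1 was 4.40 (limma adjusted p = 0.000698) and the fitted value of Ciart 2.45 (adjusted p = 0.00662). Those of Arntl, Npas2 and Cry2 were 0.28, -0.73 and 0.24 (adjusted p = 0.322 for Arntl).

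Markers of other cells moved with the treatment. The mean of 6 neutrophil markers, all at background in PBS, was 4.39 to 4.92 in PBS and 10.81, 11.56, 7.21 and 7.16 in IL1B 1 to 4, and 5 of the 6 were called higher. The mean of 5 monocyte markers was 5.50 to 6.47 in PBS and 10.45, 11.30, 7.21 and 7.55 in IL1B, with 3 called higher. The mean of 6 Kupffer cell markers was 9.83 to 11.11 in PBS and 13.41, 12.68, 10.42 and 9.86 in IL1B, with 0 called by limma and 1 higher at an unadjusted p of 0.05. Per1 and Ciart were also highest in IL1B 2 and 1. Without IL1B 1 and 2, Per1 was still called, at 3.19 (limma adjusted p = 0.00944), while the fitted value of Ciart was 0.96 (adjusted p = 0.162). Of 6 endothelial markers 3 were called lower, among them Kdr at -2.47 ± 0.21 (SE, adjusted p = 0.00012), and Lyve1 was called higher at 3.18 ± 0.63 (SE, adjusted p = 0.0114), while the list mean was 11.64 to 12.18 in PBS and 11.49 to 11.76 in IL1B. Of 6 stellate cell markers 2 were called lower, with list means of 11.32 to 11.83 and 11.01 to 11.26, and of 4 cholangiocyte markers Sox9 was called higher, at 0.92 ± 0.21 (SE), with list means of 5.75 to 6.04 and 5.92 to 6.39. Of 6 hepatocyte markers 1 was called, Hnf4a, and it carried the whole rise of the list mean from 18.79 to 18.93 in PBS to 19.07 to 19.12 in IL1B, since Alb, Apoa1 and Ttr had equal values in all 8 arrays near the end of the scale (19.93). The 6 lymphocyte markers were at background in all arrays, and 2 of them were called lower there. The part of these cells in the clock values was not tested, and in whole liver a change in the number of cells of a type and a change in their RNA content cannot be told apart.

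The genes around the loop were counted by role. Each count is to be read beside the 7.19% of all genes called higher and the 5.32% called lower. Of the 8880 genes left by the filter on dim genes, 1783 were higher and 1147 lower. In the second loop, which sets Arntl and Npas2, limma called 0 of 4 measured genes, and 1 was higher at an unadjusted p of 0.05, the activator Rora at 0.41 ± 0.13 (SE, adjusted p = 0.0693). Of 6 D-box and DEC factors, 2 rose. The first was Nfil3, the D-box repressor that opposes DBP, at 9.57, 8.84, 8.21 and 9.27 in PBS and 11.50, 10.97, 11.76 and 11.97 in IL1B, with a log2 fold change of 2.57 ± 0.31 (SE, adjusted p = 0.000923). Its 4 IL1B arrays lay above all PBS arrays, and IL1B 4, the lowest IL1B array for Per1, was its highest. The second was Bhlhe40 (DEC1), a repressor of E-box genes, at 1.40 ± 0.33 (SE, adjusted p = 0.0242), which was called in 5 of the 8 fits without 1 array. The D-box activator Hlf had a log2 fold change of -0.97 ± 0.29 (SE, adjusted p = 0.0553), and Tef was at background.

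Of 17 kinases, ubiquitin ligases and phosphatases that act on the clock proteins, 1 rose and 1 fell. Fbxw11, a ligase subunit that marks PER proteins for decay, was 0.88 ± 0.19 higher on the log2 scale (SE, limma adjusted p = 0.0169). Fbxl21, a ligase subunit of the cryptochromes, was called lower (adjusted p = 0.0171) but was above background in 1 array alone, so no fold is given. Among 21 partners and chromatin cofactors, 5 rose and 1 fell. Crebbp rose by 0.63 ± 0.12 on the log2 scale (SE, adjusted p = 0.0105) and was called in all 8 fits without 1 array. Kmt2a and Kdm5a were at 0.71 ± 0.20 and 0.46 ± 0.13 (SE, adjusted p = 0.0425 and 0.0453). The histone acetyltransferase genes Ep300 and Kat2b went opposite ways, at 0.80 ± 0.16 (SE, adjusted p = 0.00984) and -1.17 ± 0.18 (SE, adjusted p = 0.00277). Sfpq, which binds PER proteins, was at 0.81 ± 0.19 (SE, adjusted p = 0.0249).

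Clock-controlled liver genes moved in both directions, with 5 of 17 higher, 2 lower and a median of -0.18. Nrg4, which encodes a secreted growth factor, was at background in PBS and at least 2.66 higher on the log2 scale (limma adjusted p = 2.45e-05). Noct, the nocturnin gene, rose by 2.16 ± 0.35 (SE, adjusted p = 0.00416) on that scale, with 2 of its 4 PBS values below background. Upp2, a uridine phosphorylase gene, had a log2 fold change of -1.50 ± 0.42 (SE, adjusted p = 0.0465), and the melatonin receptor gene Mtnr1a, at background in IL1B, was called lower (adjusted p = 0.00547) but was above background in only 2 of the 4 PBS arrays, so no fold is given.

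Among genes of the glucocorticoid and CREB pathways, both known inducers of Per1, 8 of 15 rose and 0 fell (0 also at an unadjusted p of 0.05), with a median log2 fold change of 0.74. Zbtb16, a glucocorticoid-responsive zinc finger gene, was 8.42, 8.41, 7.02 and 7.34 in PBS and 13.01, 13.14, 13.04 and 12.52 in IL1B, a log2 fold change of 5.13 ± 0.33 (SE, limma adjusted p = 3.06e-05). Sgk1 and Dusp1, which encode a kinase and a MAP kinase phosphatase, were at 2.09 ± 0.27 and 1.57 ± 0.37 (SE, adjusted p = 0.00136 and 0.0226). Mt2, a metallothionein gene, was 12.38 to 18.23 in PBS and 19.89 to 19.93 in IL1B, where the scale ends, so its difference of 4.82 is a lower bound (adjusted p = 0.0147). Fkbp5, a classical glucocorticoid target, was at 1.56 ± 0.47 (SE, adjusted p = 0.0605) and did not pass. Klf9 and Tsc22d3 of the same list were called higher, at 0.91 ± 0.17 and 1.43 ± 0.37 (SE, adjusted p = 0.00846 and 0.0333). Klf9 was called in all 8 fits without 1 array, and Tsc22d3 was above background in only 1 of the 4 PBS arrays. The list was not split by pathway, and whether either pathway acted on Per1 was not tested. The glucocorticoid receptor gene Nr3c1 was at -0.24 ± 0.11 (SE, adjusted p = 0.216), with every IL1B array below every PBS array. Fos, Nr4a1, Sik1 and Egr1, 4 immediate early genes of the list, did not pass the test, while Dusp1 and Crem were called. Fos and Nr4a1 were at background in all arrays, Sik1 was at 0.25 ± 0.47 (SE, adjusted p = 0.785), and Egr1, at background in IL1B, had an adjusted p of 0.227. Of the CREB family itself, Creb1 and Crem rose by 0.74 ± 0.18 and 0.71 ± 0.18 (SE, adjusted p = 0.0272 and 0.0302). Over the 6 lists together, 21 of 80 measured genes were higher and 4 lower, beside 7.19% and 5.32% of all genes. However, 12160 of the 22180 genes were at background in all arrays, against 7 of these 80. With the filter on dim genes, 24 genes of the lists were higher and 6 lower, beside 1783 and 1147 of the 8880 genes left. Without PBS 1 the counts for the lists were 12 and 2, and without IL1B 1 they were 13 and 3. Of the genes named, Fbxl21 was called in 7 of the 8 fits without 1 array, Dusp1 and Creb1 in 4, and Sfpq in 3. Upp2, Crem and Tsc22d3 were called in 2 of these fits, Kdm5a in 1 and Kmt2a in 0. These lists were chosen for their ties to the clock with results of these arrays known.

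**Figure D4:**
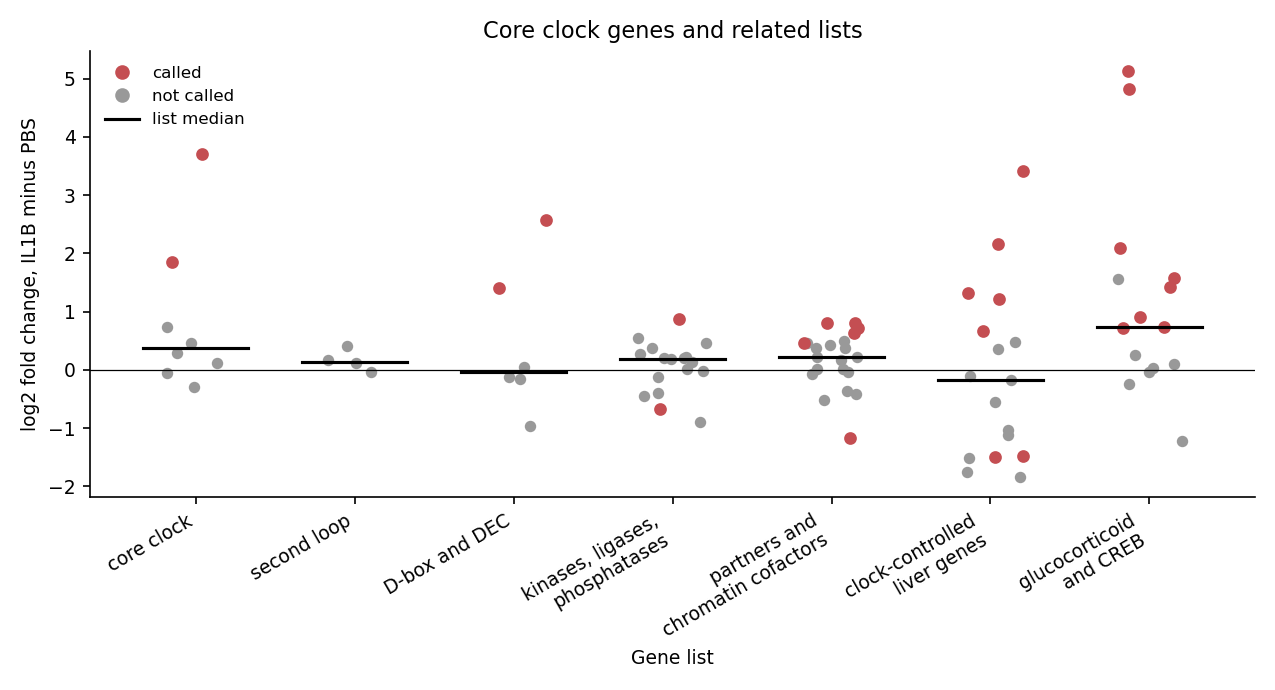
Each point is the log2 fold change (IL1B minus PBS, fitted values, genes at background included) of a gene in the core clock list or in 1 of the 6 lists around it, red where called by limma and grey where not, with the list median as a bar. Per1 at 3.70 is the highest core clock gene, the second loop has no called gene, and 8 of the 15 glucocorticoid and CREB pathway genes are red.

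The genes whose values over the 8 arrays were most like those of Per1 were Twf1, Ero1a, Hnf4a, Ivns1abp and Lpgat1, ranked by Pearson's r among 10013 genes. Their r with Per1 ran from 0.982 to 0.987, a likeness that includes the difference between the groups. Their log2 fold changes ran from 0.68 ± 0.15 for Twf1, an actin-binding protein gene, to 1.56 ± 0.21 for Lpgat1, a lipid acyltransferase gene, all smaller than that of Per1. Hnf4a, a nuclear receptor gene of hepatocyte identity, was at 1.25 ± 0.15 (SE).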

How the data were processed

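Liver RNA of 4 PBS and 4 IL1B mice was hybridized to MoGene 2.0 ST arrays (Affymetrix). What was deposited are log2 RMA values, made by the authors with Affymetrix Power Tools through GIANT in Galaxy with GC correction where offered, scaled intensity and RMA at the probe set level. No version was given in the sources used here. RMA equalizes arrays, so a shift of all genes would be partly removed. Of 41345 features, 23521 with 1 symbol in the platform annotation were averaged per symbol to 22180 genes, 1820 had several symbols and 16004 none.

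Groups came from the sample titles. limma 3.58.1 (R 4.3.3) was fitted to all 8 arrays with group as the factor, with Benjamini-Hochberg adjustment over all genes. Genes at an adjusted p of 0.05 or less were called, and calls at 0.15, the study's cutoff, were also counted. Exact permutation tests (70 assignments, scipy 1.17.1) were two-sided. Background was the highest of 23 antigenomic probe sets per array (6.65 to 7.08). A gene at or below it in all arrays of a group has only a bound there, and its fold is given as "at least", with the dim group raised to that level. For Ciart the other group also held an array below background, so its fold is given without "at least". The number of arrays limits the precision. Between any pair of arrays at most 0.341% of features had equal values and correlations were 0.965 to 0.993, so each array counted as 1 sample. No batch or scan label was available in the sources used here, and the p-values cover only the spread between mice.

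The members and the lists were chosen with earlier results of these data known. In each list, the text names the 2 highest and 2 lowest called genes, filled by the size of the change, plus genes tied to the loop that were added after their values were seen. The same held for cell type markers. Genes like Per1 were ranked over genes above background in at least 1 array. The fit was tested on simulated data with known changes. As alternatives, arrays were left out, weighted, median-centred or quantile-normalized, dim genes were filtered out, the brightest feature stood for its gene, eBayes was run with trend and robust, the replicate number was a block, and the cutoff was 0.15. Leaving out PBS 3 with IL1B 4, or IL1B 1 with IL1B 2, was chosen after seeing the data. Figures were drawn with matplotlib 3.10.9.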

Additional observations from a re-analysis of the deposited data

Results flagged for a closer look

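In 2 of the 16 sets of 4 values tested (8 core clock genes in each group), 1 array lay far from the other 3, where chance gives about 1 in 20. Both were PBS 3. For Arntl in PBS, the gap between PBS 3 at 10.89 and the next array was 0.932 of the range of the group. For Per3 in PBS, the gap between PBS 3 at 6.39 and the next array was 0.853 of the range, with all 4 values below background. In the same array Dbp was 11.84, against 7.04 to 7.80 in the other 3 PBS arrays.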

How the results depend on the processing

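Per1 stayed called under every setting run. Of the 8 core clock genes, 2 were called higher and 0 lower, and the first count became 1 with a filter on dim genes (which leaves 8880 genes and no Ciart or Per3), 1 without IL1B 1 and 2, and 1 to 2 without 1 array. The fitted Npas2 value of 0.11 turned to -0.059 with quantile normalization and -0.73 without PBS 3 and IL1B 4, was 1.07 without IL1B 1 and 2, and ranged from -0.47 to 0.45 without 1 array. That of Per3 (-0.05, below background) turned to 0.045 with quantile normalization, 0.005 with median centring and 0.44 without PBS 3 and IL1B 4, and was -0.23 without IL1B 1 and 2, ranging from -0.21 to 0.34 without 1 array. Cry2 (-0.29) turned to 0.24 without PBS 3 and IL1B 4, was -0.56 without IL1B 1 and 2, and ranged from -0.48 to 0.04.

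In the 6 other lists, the 21 genes called higher became 11 without PBS 3 and IL1B 4, 9 without IL1B 1 and 2 and 12 to 18 without 1 array (12 without PBS 1 and 13 without IL1B 1). The 4 called lower became 9 with quantile normalization, 7 with eBayes trend and robust, 9 at the cutoff of 0.15, 2 under each setting without a pair of arrays and 2 to 6 without 1 array (2 without PBS 1). Over all genes, 1594 higher and 1179 lower calls became 1367 and 1523 with quantile normalization and 1784 and 905 with median centring. Apart from fewer arrays or genes in the fit, the cause was not tested.

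With the replicate number as a block, 2 core clock genes were called higher and 0 lower, and 19 and 6 genes of the other lists. Same-numbered arrays correlated at -0.07, 0.22, 0.05 and 0.12 after group means were removed, and arrays with different numbers at -0.19 to 0.08. These few values cannot settle whether the numbers pair the mice, and the main fit treated the mice as unpaired. Per3 and 7 of the 80 other genes were at background in all arrays, and Ciart and further genes of the lists in part of the arrays. With 4 arrays a group, small changes of such dim genes could not be detected.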
